A study of Mus musculus with 2 samples.

Results

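Surface colonocytes are the absorptive epithelial cells at the mouth of the colonic crypt. They were taken here as cell barcodes with at least 2 UMIs (unique molecular identifiers, each 1 captured RNA molecule) of the epithelial genes Epcam, Lgals4 and Krt8 together and at least 2 UMIs of 6 surface genes together, Aqp8, Car4, Saa1, Sprr2a3, Clca4a and Krt20. Fewer than 2% of their UMIs came from 6 goblet cell genes, and they held no UMI of the leukocyte gene Ptprc or the fibroblast gene Col1a2. The rule was applied to 51389 barcodes, kept for having 500 or more UMIs from 300 or more genes, with mitochondrial RNA below 20%, and 691 met it. The colotomy library gave 161 of 9246 and the sham library 530 of 42143.

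The 2 single-cell libraries came from mice of genotype B6/C57, aged 8 to 12 weeks, on postoperative day 14. One followed a colotomy, an incision of the colon, and the other a sham operation. No other allele or agent is named for either group, and the number of animals in each library is not given in the sources used here. Each library pools digested bowel with mesenteric adipose tissue, the fat along the gut, and the 2 tissues were marked with hashtag antibodies. Neither group has a replicate. Differences between the groups are thus between 2 libraries, and no difference below has a test. Intervals, where given, are at 95% and cover counting error only.

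As colonocytes move from the crypt base to the surface they stop dividing, build a brush border of microvilli and take up water, salt and short-chain fatty acids. Fatty acids from bacteria are their main fuel. They also keep bacteria away from the epithelium, through secreted lectins of the Reg3 family, through Lypd8 and through a layer of membrane-bound mucins. Cytokines such as interleukin-22 switch on Reg3 genes through STAT3, and interferons switch on genes of antiviral defence and antigen presentation. At the end of their life, surface cells are shed into the lumen.

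Depth differed between the libraries. The members held 183697 gene UMIs after colotomy (median 962 UMIs and 576 genes per cell) and 1118884 after sham (median 1628.5 UMIs and 793.5 genes). A single UMI was thus worth 5.44 and 0.894 CPM, the UMIs of a gene scaled to a common total of the members' gene UMIs. Mitochondrial genes took 11.8% and 12.0% of UMIs. The libraries shared 190 barcode sequences, 108 of them kept in both, of which 2 belonged to colotomy members and 0 to sham members. Xist, expressed from the inactive X of females, had 28 UMIs in 13 colotomy members and 0 in sham members, while RNA of 4 Y-linked genes stood at 163 and 156 CPM. The colotomy members thus held cells of both sexes, and the part of sex in the differences below was not tested beyond a comparison of cells with Y-linked RNA.

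Hashtag counts could not be used to place members in a tissue. Hashtag 1, which the submitters' reference pairs with bowel, outnumbered hashtag 2 in 99.4% of colotomy members and in 4.15% of sham members. The median share of hashtag 1 was 87.1% and 31.3% in members, 85.1% and 30.0% in fibroblast-rule cells (at least 5 collagen and decorin UMIs, no Ptprc) and 86.9% and 27.7% in lymphocyte-rule cells (Ptprc with at least 2 T or B cell UMIs). After each hashtag was divided by its library median, hashtag 1 was ahead in 67.7% of colotomy members (59.9% to 74.8%) and 70.2% of sham members (66.1% to 74.1%). The same share was 58.0% and 46.4% in lymphocyte-rule cells.

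The genes of the rule describe how the cells were chosen and carry no finding. The median member held 4 surface-gene UMIs after colotomy and 7 after sham. Members with exactly 2, the fewest allowed, were 54 of 161 and 68 of 530, and members with at least 3 of the 6 genes were 67 and 356. Krt20, a keratin of differentiated gut epithelium, was found in 73.3% of colotomy and 62.8% of sham members. Aqp8, a water channel, was found in 11.8% and 39.6%, and Car4, a membrane carbonic anhydrase, in 41.6% and 77.0%. The other 3 genes lay between 36.02% and 48.4% after colotomy and between 48.7% and 58.9% after sham. Without Saa1 and Sprr2a3, 41 colotomy and 70 sham members would have missed the threshold. Cells with 1 surface UMI, just outside the rule, numbered 118 and 126. Car1, a cytosolic carbonic anhydrase, stood at 4191 and 2317 CPM in those cells and at 7155 and 3823 CPM in the members with exactly 2. Lypd8, a secreted anti-bacterial protein, stood at 1315 and 1402 CPM just outside the rule and at 3410 and 3430 CPM just inside.

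Genes that the rule did not use carried the profile of surface colonocytes in both libraries. Against the other epithelial cells, with under 2 surface UMIs and few goblet UMIs (1062 and 901 cells), 21 of 28 further surface genes were at least 1.5-fold higher in both libraries and 1 was lower. Of all 11337 genes compared, 9.54% were higher and 19.2% lower in both. These cells were split by their own RNA, so this is a description. Ly6m was among the genes farthest above the other epithelial cells, at 414 against 3.23 CPM after colotomy and 450.4 against 6.75 CPM after sham. Ceacam20, a brush border adhesion molecule, stood at 201 against 7.28 CPM and 191 against 6.27 CPM. Mep1b, a brush border protease, stood at 174 against 10.5 CPM and 109 against 6.27 CPM. Mxd1, which opposes Myc in cells that stop dividing, stood at 501 against 36.4 CPM and 702 against 37.6 CPM. Of 29 stem and proliferation genes 28 were lower in both libraries. Among them Mki67, a marker of cycling cells, stood at 32.7 against 209 CPM and 52.7 against 221 CPM. Of 32 interferon and antigen presentation genes 14 were higher in surface colonocytes in both libraries and 0 were lower.

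One set of members in the colotomy library went against the label. Of 161 colotomy members 25 (15.5%, 10.3% to 22.1%) held at least 2 UMIs of 6 genes of the small intestine (Apoa1, Apoa4, Sis, Fabp6, Anpep and Lct, chosen after their values were seen), against 1 of 530 sham members (0.189%, 0.00478% to 1.05%). With the small intestine markers chosen earlier (Apoa1, Apoa4, Alpi, Sis, Fabp6 and Rbp2), the counts were 26 (16.1%) and 20 (3.77%). The 25 cells held all 222 UMIs of Apoa1, a lipoprotein of enterocytes, and 207 of the 209 UMIs of Fabp6, the bile acid carrier of the ileum. They met the surface rule mainly through Krt20, found in 20 of the 25, and Clca4a, found in 14. Aqp8 was found in 1 of them. Colon genes were low there. Car1 stood at 339 CPM in the 25 cells and at 10843 CPM in the other 136 colotomy members. Cyp2c55, a cytochrome of the colon, stood at 170 and 2798 CPM, and Lypd8 at 1399 and 5265 CPM. The levels in the other 136 lay on the side of the sham members, with Car1 at 5567 CPM, Cyp2c55 at 2137 CPM and Lypd8 at 8143 CPM. Y-linked RNA was found in 3 of the 25 cells and in 23 of the 136, and Xist in 1 and 12. The 25 cells held 23593 UMIs. Values below include them unless stated, and only some genes and lists are also given without them.

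**Figure D1:**
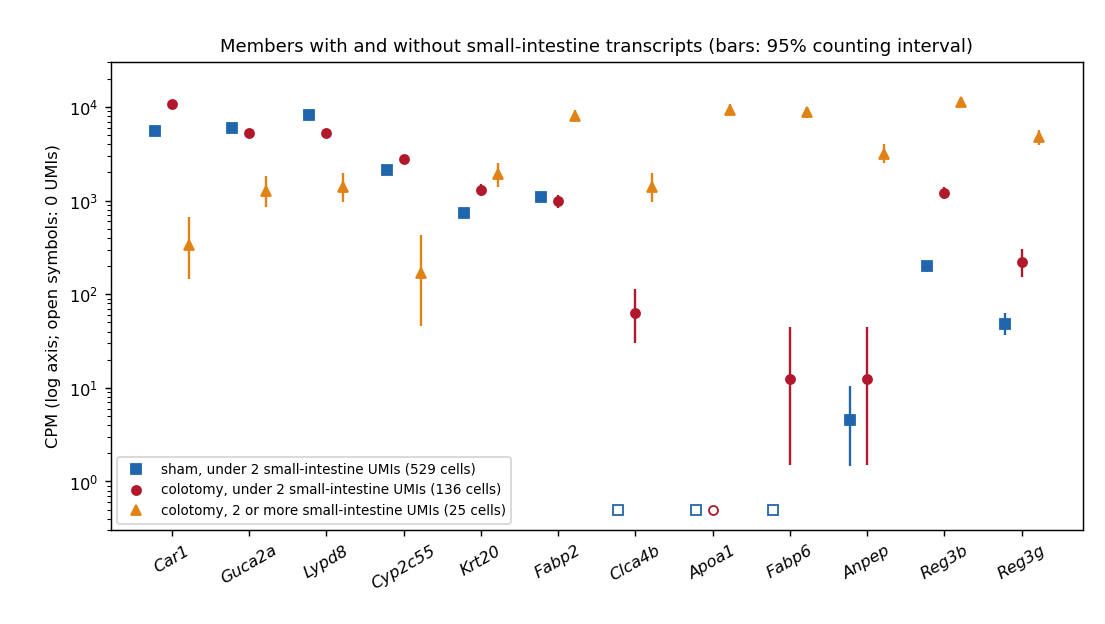
Levels of 12 genes in CPM (y axis, log scale) in sham members and in colotomy members with under 2 or with 2 or more UMIs of the 6 small intestine genes, with 95% counting intervals; open symbols mark 0 UMIs. The 25 colotomy cells with small intestine RNA lie far below the rest for Car1 (339 CPM) and above them for Reg3b (11359 CPM). Apoa1, Fabp6 and Anpep belong to the set used for the split.

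Members made up 1.74% of kept cells after colotomy (1.48% to 2.03%) and 1.26% after sham (1.15% to 1.37%). The colotomy members counted here include the 25 cells with small intestine RNA. Without members with such RNA, 136 of 9246 kept colotomy cells and 529 of 42143 kept sham cells remained. Shares and intervals without them are not given here, so the higher share after colotomy is not one of colonocytes alone. Lymphocyte-rule cells were 224 of the kept colotomy cells and 19813 of the sham cells, or 2.42% and 47.0%. Fibroblast-rule cells were 4025 and 3565, or 43.5% and 8.46%, so the makeup of the denominator differed between the libraries. As a share of epithelial cells, members were 9.75% of 1652 after colotomy (8.36% to 11.3%) and 30.1% of 1761 after sham (28.0% to 32.3%), 3.09-fold lower (2.58 to 3.71). The remaining epithelial cells were 1062 and 901 with few surface UMIs and 429 and 330 rich in goblet RNA. The 2 denominators thus gave opposite directions. With at least 4 surface UMIs required, the share of kept cells turned to 0.898% and 0.971% and the share of epithelial cells stayed lower after colotomy. Colotomy cells were shallower, and with the rule read after every cell was thinned to 500 UMIs the share of epithelial cells was 0.393 of that in the sham library.

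Within members, Reg3b, Reg3g and 8 of 13 acute phase and STAT3 genes were higher after colotomy, and 17 of 29 interferon and antigen presentation genes were lower. Over all 7029 genes with at least 20 UMIs in the 2 libraries, 1570 (22.3%) were at least 1.5-fold higher after colotomy and 1627 (23.1%) at least 1.5-fold lower. The median log2 ratio was 0.02. These shares are the background for each list below, and with few UMIs per gene much of the background can be counting error.

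Reg3b and Reg3g encode secreted C-type lectins that bind bacteria near the epithelium. Reg3b, on chromosome 6 (78370657 to 78373466, plus strand, mm10), stood at 2520 CPM after colotomy (463 UMIs in 52 of 161 cells) and at 211 CPM after sham (236 UMIs in 25 of 530 cells). The ratio was 11.9 (10.2 to 14.0). Reg3g stood at 800.2 CPM (147 UMIs in 37 cells) and at 48.3 CPM (54 UMIs in 10 cells), a ratio of 16.6 (12.1 to 23.1). The RNA was uneven between cells. In the 25 colotomy cells with small intestine RNA, Reg3b stood at 11359 CPM and Reg3g at 4747 CPM. In the other 136 they stood at 1218 and 219 CPM, against 199 and 48.5 CPM in sham members chosen the same way, log2 ratios of 2.61 and 2.17. Among members with Y-linked RNA and no Xist (25 and 140 cells) they were 1.88 for Reg3b and 1.47 for Reg3g. After every cell was thinned to 500 UMIs, Reg3b was found in 28.0% of colotomy members (21.2% to 35.6%) and 3.02% of sham members (1.74% to 4.86%), and without thinning in 32.3% and 4.72%. In fibroblast-rule cells, which should lack the gene, the thinned shares were 3.40% and 0.112%, at median depths of 738 and 1406 UMIs. Higher Reg3b was not confined to surface cells, with log2 ratios of 4.97 in other epithelial cells, 5.15 in goblet-rich cells, and 5.05 in fibroblast-rule cells at 116 and 3.50 CPM.

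The acute phase and STAT3 list, to which both belong, had 8 of 13 measured members higher and 0 lower. Its median log2 ratio was 0.84. Saa3, an acute phase protein, had 15 UMIs after colotomy (81.7 CPM) and 14 after sham (12.5 CPM), a log2 ratio of 2.71 (1.55 to 3.87). Il1rn, the antagonist of the interleukin-1 receptor, stood at 81.7 and 29.5 CPM, log2 1.47 (0.48 to 2.39). Cebpb, a transcription factor of the acute phase, stood at 92.5 and 27.7 CPM, log2 1.74 (0.79 to 2.64). Stat3 itself stood at 109 and 104 CPM, log2 0.07 (-0.69 to 0.76). Saa2 had 0 UMIs after colotomy and 22 after sham, and counted as within 1.5-fold only with its 0 set to 3 counts. Saa1, left out of the list as a gene of the rule, was not higher, at 784 and 986 CPM, log2 -0.33 (-0.59 to -0.08). Without the 25 cells the list's median was 0.71, with 8 members higher and 0 lower. The shares over all genes without these cells are not reported here. Over all genes, with the 25 cells kept, 22.3% were higher and 23.1% lower.

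Other barrier genes were split. The antimicrobial and barrier list had 9 of 18 members higher and 3 lower, with a median of 0.42. Pigr, which carries antibodies into the lumen, stood at 1432 CPM in colotomy and 680.1 CPM in sham members, log2 1.07 (0.87 to 1.28). Dmbt1, a secreted scavenger receptor, stood at 1916 and 1009 CPM, log2 0.93 (0.75 to 1.10). Muc13, a membrane mucin, stood at 1786 and 1087 CPM, log2 0.72 (0.54 to 0.89). Muc3, the mucin of the brush border, stood at 2433 and 2236 CPM, log2 0.12 (-0.03 to 0.27). Lypd8 went the other way, at 4769 CPM after colotomy and 8166 CPM after sham, log2 -0.78 (-0.88 to -0.68). Without the 25 cells its log2 ratio was -0.63. Without every member with a B cell UMI, a set treated further below, 142 and 213 cells remained. Dmbt1 then no longer counted as higher, at 1937 and 1338 CPM, log2 0.53 (0.33 to 0.73). Pigr and Muc13 still did, at log2 0.70 (0.46 to 0.93) and 0.67 (0.46 to 0.88). Lypd8 stayed lower, at log2 -0.84 (-0.95 to -0.73). Plet1, a gene of epithelial migration and repair, had 39 UMIs in 24 colotomy cells (212 CPM) and 34 UMIs in 23 sham cells (30.4 CPM), log2 2.80 (2.10 to 3.51). Slpi, a protease inhibitor, had 84 and 89 UMIs in 7 and 12 cells, so a few cells set its log2 ratio of 2.52.

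The interferon and antigen presentation list was the one with the lowest median among the epithelial lists, at -0.82, with 17 of 29 members at least 1.5-fold lower and 1 higher. Isg15, a ubiquitin-like modifier, had 5 UMIs in 3 of 161 colotomy cells (27.2 CPM) and 231 UMIs in 117 of 530 sham cells (206 CPM), 7.59-fold lower (3.20 to 23.6). Irf7, the regulator that amplifies the interferon response, stood at 191 CPM (35 UMIs) and 580.04 CPM (649 UMIs), 3.04-fold lower (2.17 to 4.41). Oasl2, an antiviral sensor, stood at 38.1 and 161 CPM, 4.22-fold lower (2.01 to 10.7). Ifit1, which binds viral RNA, stood at 54.4 and 181 CPM, 3.32-fold lower (1.77 to 7.02). Ifit1bl1, of the same family, stood at 54.4 and 282 CPM, 5.17-fold lower (2.78 to 10.9). Ddx60, an antiviral helicase, stood at 49.0 and 169 CPM, 3.45-fold lower (1.78 to 7.66). Slfn4, a Schlafen gene, stood at 43.6 and 209 CPM, 4.802-fold lower (2.40 to 11.3), and Ifi27l2b at 158 and 439 CPM, 2.78-fold lower (1.91 to 4.19). These were 8 of the 12 genes with the smallest ratio among genes well measured in the sham members. In the colotomy members each had 35 UMIs or fewer, so the size of the ratio is loose and its interval wide. Among members with Y-linked RNA and no Xist (25 and 140 cells) the log2 ratio was -0.55 for Isg15, -0.45 for Oasl2, -1.09 for Ifit1bl1 and -0.78 for Irf7, and 10 genes of the list were lower and 3 higher. Irf1 was the 1 member that was higher, at 289 and 176 CPM, log2 0.71 (0.25 to 1.16).

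The shares of cells with a UMI were compared at equal depth. After thinning to 500 UMIs, Irf7 was found in 10.6% of colotomy members (6.27% to 16.4%) and 27.5% of sham members (23.8% to 31.6%), and before it in 16.1% and 57.0%. Lymphocyte-rule cells held it in 1.34% and 2.27% after thinning, at median depths of 918 and 1553 UMIs. Isg15 was found in 0.621% and 8.30% of thinned members and in 0% (0 of 224, which allows up to 1.34%) and 1.03% of thinned lymphocyte-rule cells.

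The genes of major histocompatibility complex class II, which present antigen to helper T cells, were also lower. Cd74, the invariant chain, stood at 550 CPM (101 UMIs) and 2000.2 CPM (2238 UMIs), log2 -1.86 (-2.17 to -1.58). H2-Aa stood at 267 and 773 CPM, log2 -1.54 (-1.98 to -1.12), and H2-Eb1 at 207 and 628 CPM, log2 -1.60 (-2.11 to -1.13). Ciita, the switch for these genes, had 2 UMIs in colotomy members and 86 in sham members. Class I genes moved less. H2-K1 stood at 1296 and 1487 CPM, log2 -0.20 (-0.40 to -0.0022), and B2m at 979.9 and 1069.8 CPM, log2 -0.13 (-0.36 to 0.10). Without the members split off for small intestine RNA, 136 colotomy and 529 sham cells remained. Cd74 then had 54 and 2234 UMIs, at 337 and 2005 CPM, log2 -2.57 (-2.99 to -2.18). H2-Aa was then at log2 -1.91 (-2.46 to -1.41) and H2-Eb1 at log2 -1.96 (-2.58 to -1.39). H2-K1 was at log2 -0.35 (-0.57 to -0.13) and B2m at log2 -0.29 (-0.56 to -0.04).

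RNA of B cells, which are rich in class II, moved with these genes. At least 2 UMIs of Cd79a, Cd79b and Ms4a1 were found in 5 colotomy members (3.11%) and 189 sham members (35.7%). Cd74 was lower in fibroblast-rule cells too, at 886 and 2127 CPM, log2 -1.26 (-1.32 to -1.21). Without every member with a B cell UMI, 142 and 213 cells remained. In these cells Cd74 stood at 518 and 1111 CPM, log2 -1.10 (-1.45 to -0.77), Irf7 at 179 and 537 CPM, log2 -1.59 (-2.19 to -1.03), and Isg15 at 30.8 and 142 CPM, log2 -2.21 (-3.87 to -0.91). H2-Aa was then at log2 -0.78 (-1.29 to -0.31) and H2-Eb1 at log2 -0.94 (-1.53 to -0.39). Ciita had 2 and 14 UMIs, with an interval that includes equal levels. The list's median was then -0.39, with 12 members lower and 1 higher. Haemoglobin RNA went the same way, with at least 2 UMIs in 4.35% and 22.8% of members. The part of RNA from other cells in the remaining difference was not tested.

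**Figure D2:**
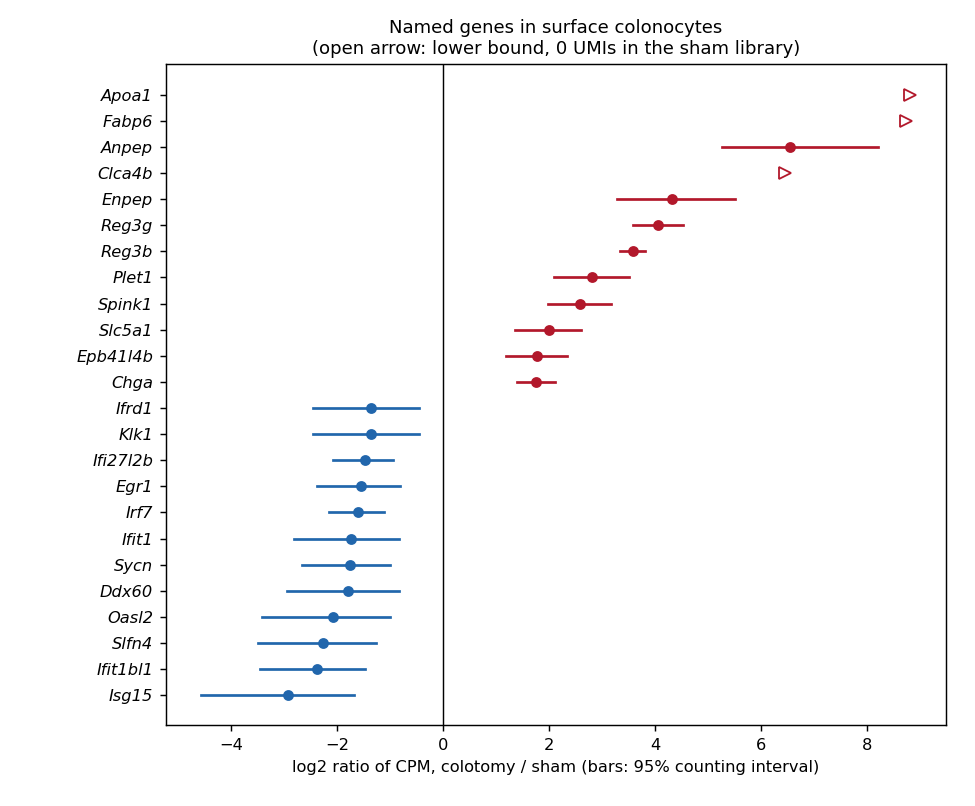
Log2 ratio of CPM, colotomy over sham, for the 24 genes named by size of ratio, with 95% counting intervals; red is higher and blue lower after colotomy, and open arrows are lower bounds for genes with 0 sham UMIs. Small intestine genes and Reg3 genes fill the upper part, and interferon genes such as Isg15 (log2 -2.92) and Ifit1bl1 (log2 -2.37) the lower part.

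Other epithelial cells showed the same direction for the interferon list, with 17 of 27 members lower, 1 higher and a median of -1.01. Over all 10703 genes measured in those cells 1422 were lower and 1757 higher, with a median of 0.098. Irf7 stood there at 16.2 and 43.9 CPM, log2 -1.44 (-2.22 to -0.73), a level far below that in surface colonocytes in both libraries. Its level was no higher than in lymphocyte-rule cells (32.8 and 49.9 CPM) or fibroblast-rule cells (23.5 and 56.5 CPM). At least 2 B cell UMIs were found in 1.98% of colotomy and 36.8% of sham other epithelial cells. The part of RNA from other cells in these values was not tested. Slfn4 stood at 11.3 and 13.03 CPM in other epithelial cells, log2 -0.20 (-1.25 to 0.78). Whether the ratio differs between the 2 sets of cells was not tested. Malat1, a nuclear RNA, was lower after colotomy in each of the 5 sets of cells plotted, and stood at 17197 and 36568 CPM in members, log2 -1.09.

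**Figure D3:**
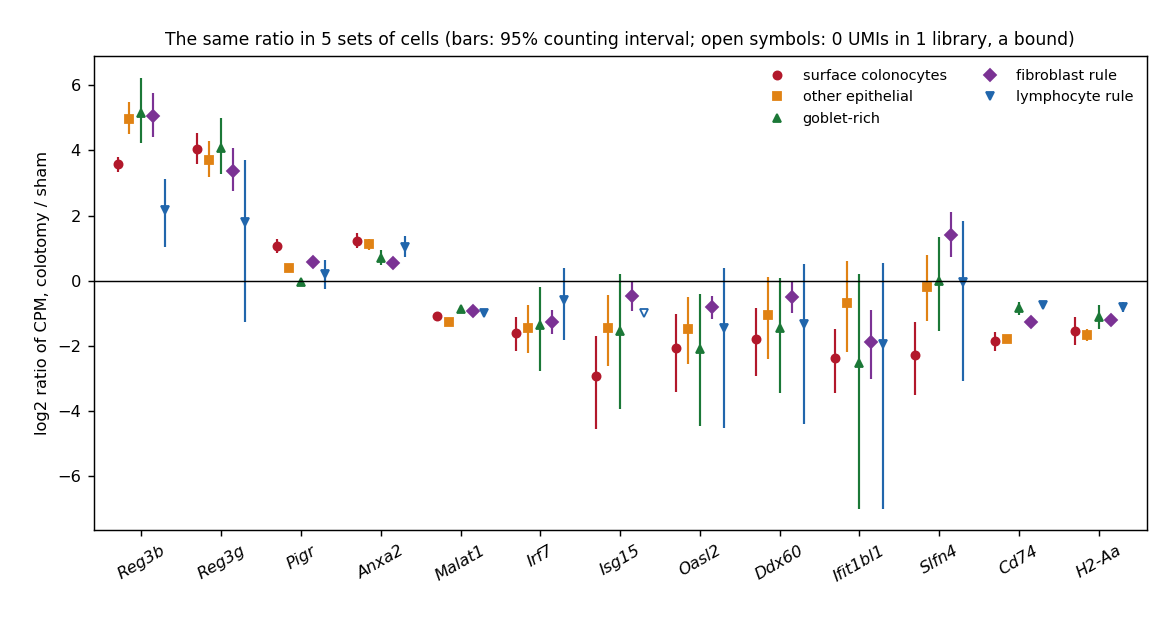
Log2 ratio of CPM, colotomy over sham, for 13 genes in surface colonocytes and in 4 other sets of cells, with 95% counting intervals cut at the axis; open symbols are bounds where 1 library had 0 UMIs. Reg3b and Reg3g are higher after colotomy in all 5 sets, and Irf7 and Cd74 are lower in all 5, with intervals that include 0 in lymphocyte-rule cells for Irf7 and for Reg3g, which had 2 colotomy UMIs there.

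Some of the lower interferon genes held a match to a known motif near their start. The promoters of Isg15, Ifit1 and Ddx60 are shown because they hold letters that match the interferon-stimulated response element. That of Reg3b is shown because it holds letters that match a STAT element. The sequences are the 150 bases before the start site from RefSeq, build GRCm38 (mm10), 5′ to 3′ on the gene's strand. For Reg3b the RefSeq start lies inside the gene span given above, which comes from GENCODE and begins earlier. Capitals mark 2 copies of GAAA with any 2 bases between them, read on both strands, in the first 3 and TTCNNNGAA, whose letters read the same on both strands, in Reg3b. The regions are chr4:156200819-156200968 (minus strand) for Isg15, chr19:34640739-34640888 (plus) for Ifit1, chr8:61927937-61928086 (plus) for Ddx60 and chr6:78370735-78370884 (plus) for Reg3b.
Isg15: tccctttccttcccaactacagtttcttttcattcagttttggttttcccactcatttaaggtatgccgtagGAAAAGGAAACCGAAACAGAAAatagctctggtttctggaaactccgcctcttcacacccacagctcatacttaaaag
Ifit1: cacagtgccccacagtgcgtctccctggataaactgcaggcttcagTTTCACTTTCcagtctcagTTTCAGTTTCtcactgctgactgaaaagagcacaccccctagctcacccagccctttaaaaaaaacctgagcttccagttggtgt
Ddx60: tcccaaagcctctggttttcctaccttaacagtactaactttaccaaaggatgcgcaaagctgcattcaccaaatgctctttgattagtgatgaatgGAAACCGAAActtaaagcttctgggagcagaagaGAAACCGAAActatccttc
Reg3b: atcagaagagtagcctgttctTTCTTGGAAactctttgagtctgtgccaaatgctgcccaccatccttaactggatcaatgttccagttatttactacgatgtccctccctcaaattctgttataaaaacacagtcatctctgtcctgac

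In Isg15 3 overlapping matches run together from position -78, in Ifit1 and Ddx60 2 matches lie apart, and in Reg3b a single match starts at -129. Over the window from 250 bases before to 50 after the start, 4 of the 10 lower genes with a promoter in the table held the paired GAAA (Isg15, Ifit1, Ifit1bl1 and Ddx60), as did 0 of the 11 higher genes and 3.44% of all 32851 promoters. TTCNNNGAA was found for 2 of the 11 higher genes (Reg3b and Enpep), 0 of the 10 lower and 8.30% of all promoters. A match is a description of the letters and not a sign of binding.

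The remaining genes with the largest ratios came mostly from the 25 cells. Apoa1 (222 and 0 UMIs) was at least 451-fold higher and Fabp6 (209 and 0 UMIs) at least 424-fold higher, with 0 set to 3 counts. Anpep, an aminopeptidase of the brush border, stood at 419 and 4.47 CPM. Clca4b, a neighbour of Clca4a on chromosome 3, had 43 and 0 UMIs, at least 87.3-fold higher, and 33 of the 43 lay in the 25 cells. How reads that fit both genes were counted is not given in the sources used here. The other 10 UMIs, in the remaining 136 cells, were at least 23.2-fold above the sham members. Enpep, another aminopeptidase, stood at 180 and 8.94 CPM, and 32 of its 33 colotomy UMIs lay in those cells. Spink1, a trypsin inhibitor, stood at 267 and 44.7 CPM, and Slc5a1, the glucose carrier, at 207 and 51.8 CPM. Without the 25 cells the ratio of Spink1 went from 5.97 to 1.33 (0.574 to 2.75) and that of Slc5a1 from 3.99 to 1.71 (0.880 to 3.11), and Anpep had 2 and 5 UMIs. Enpep turned to log2 -0.37 (1 UMI), and the median of the small intestine list went from 1.997 (10 of 11 higher) to -0.07 (1 higher and 2 lower). The genes that picked the 25 cells, Apoa1, Fabp6 and Anpep among them, belong to this list. Its fall was thus fixed by the choice of cells and is not a finding. Epb41l4b, a protein of the cell cortex, did not follow this pattern. It stood at 223 and 65.2 CPM, log2 1.77 (1.19 to 2.35), and at log2 1.74 without the 25 cells. Chga, a gene of hormone-making cells, had all of its 100 and 180 UMIs in 6 and 6 members.

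Another 4 genes were among the 12 with the smallest ratio. Sycn, first known from pancreatic granules, stood at 76.2 and 258 CPM, 3.39-fold lower (1.99 to 6.28), but turned to log2 1.05 among members with Y-linked RNA and no Xist (25 and 140 cells). It was most abundant in goblet-rich cells, at 163 and 698 CPM. Klk1, a kallikrein, stood at 54.4 and 140 CPM, 2.58-fold lower (1.37 to 5.48), with 1317 and 2061 CPM in goblet-rich cells. Egr1, an immediate early gene, stood at 87.1 and 254 CPM, 2.91-fold lower (1.76 to 5.17), and Ifrd1 at 54.4 and 140 CPM, 2.58-fold lower (1.37 to 5.48). Of 23 immediate early genes, which respond within minutes to stimulation and to tissue digestion, 9 were lower and 3 higher, with a median of -0.11. Jun stood at 436 and 680.1 CPM, log2 -0.64 (-0.99 to -0.31), Fos at 278 and 417 CPM, log2 -0.59 (-1.03 to -0.17), and Jund at 795 and 513 CPM, log2 0.63 (0.36 to 0.90).

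Genes of salt and water transport tended to be higher after colotomy, with 11 of 23 higher, 0 lower and a median of 0.56. Car1 stood at 9494 and 5591 CPM, log2 0.76 (0.69 to 0.84), and at log2 0.96 without the 25 cells. Without members holding a B cell UMI it stood at 9908 and 7242 CPM, log2 0.45 (0.37 to 0.54), under 1.5-fold. Atp1b1, a subunit of the sodium pump, stood at 1339 and 878 CPM, log2 0.61 (0.40 to 0.81). Slc26a2, a sulphate carrier, stood at 773 and 472 CPM, log2 0.71 (0.43 to 0.98). Slc5a8 and Slc16a1, carriers of short-chain fatty acids, stood at 218 and 129.6 CPM, log2 0.75 (0.21 to 1.26), and at 191 and 107 CPM, log2 0.83 (0.24 to 1.38). Slc26a3, the chloride exchanger of the surface, stood at 376 and 474 CPM, log2 -0.33 (-0.72 to 0.03). Without members holding a B cell UMI, 4 genes of the list were higher and 0 lower, with a median of 0.28. The list was higher in other epithelial cells too, with 8 of 21 genes higher, 0 lower and a median of 0.51.

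Surface genes outside the rule had 7 of 27 higher and 2 lower, with a median of 0.28. Guca2a, which encodes guanylin, stood at 4736 and 6046 CPM, log2 -0.35 (-0.46 to -0.25), while Guca2b, uroguanylin, stood at 131 and 41.1 CPM, log2 1.67 (0.89 to 2.41). Slc51a, a subunit of a bile acid exporter, stood at 223 and 78.7 CPM, log2 1.505 (0.93 to 2.06). Ceacam20 stood at 201 and 191 CPM, log2 0.07 (-0.47 to 0.58).

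Keratin and brush border genes had 11 of 24 higher and 1 lower, with a median of 0.44. Tmigd1, an adhesion protein of the brush border, stood at 506 and 206 CPM, log2 1.29 (0.93 to 1.65). Pls1, the actin bundler of microvilli, stood at 697 and 331 CPM, log2 1.08 (0.77 to 1.37), and Myo1a, their motor, at 397 and 198 CPM, log2 1.00 (0.60 to 1.39). Krt7 stood at 131 and 38.4 CPM, log2 1.77 (0.98 to 2.52). Krt19 stood at 1595 and 1732 CPM, log2 -0.12 (-0.30 to 0.06). Without the 25 cells this list had 5 members higher and 2 lower, with a median of 0.15, and the surface list above had 4 higher and 3 lower. Over all genes, with the 25 cells kept, 22.3% were higher and 23.1% lower. The shares over all genes without these cells are not reported here, so these counts are not read as a result.

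Junction genes had 10 of 24 higher and 2 lower, with a median of 0.41. Cdh1, which encodes E-cadherin, stood at 512 and 307 CPM, log2 0.73 (0.39 to 1.07), and Dsp, of the desmosome, at 669.6 and 354 CPM, log2 0.92 (0.62 to 1.22). The tight junction gene Cldn7 stood at 1960 and 1821 CPM, log2 0.11 (-0.06 to 0.27). Other epithelial cells had 10 of 24 junction genes higher and 0 lower, with a median of 0.51.

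Genes of wound repair were mixed, with 8 of 23 higher, 4 lower and a median of 0.12. Anxa2, a membrane scaffold, stood at 1165 and 496 CPM, log2 1.23 (1.00 to 1.46), and after thinning it was found in 42.2% of colotomy and 16.8% of sham members. It was higher in other epithelial cells too, at log2 1.12. Ly6a stood at 240 and 221 CPM, log2 0.12 (-0.38 to 0.59). Clu, a gene of regenerating epithelium, stood at 49.0 and 49.2 CPM. Ly6e stood at 152 and 565 CPM, log2 -1.89 (-2.49 to -1.34).

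**Figure D4:**
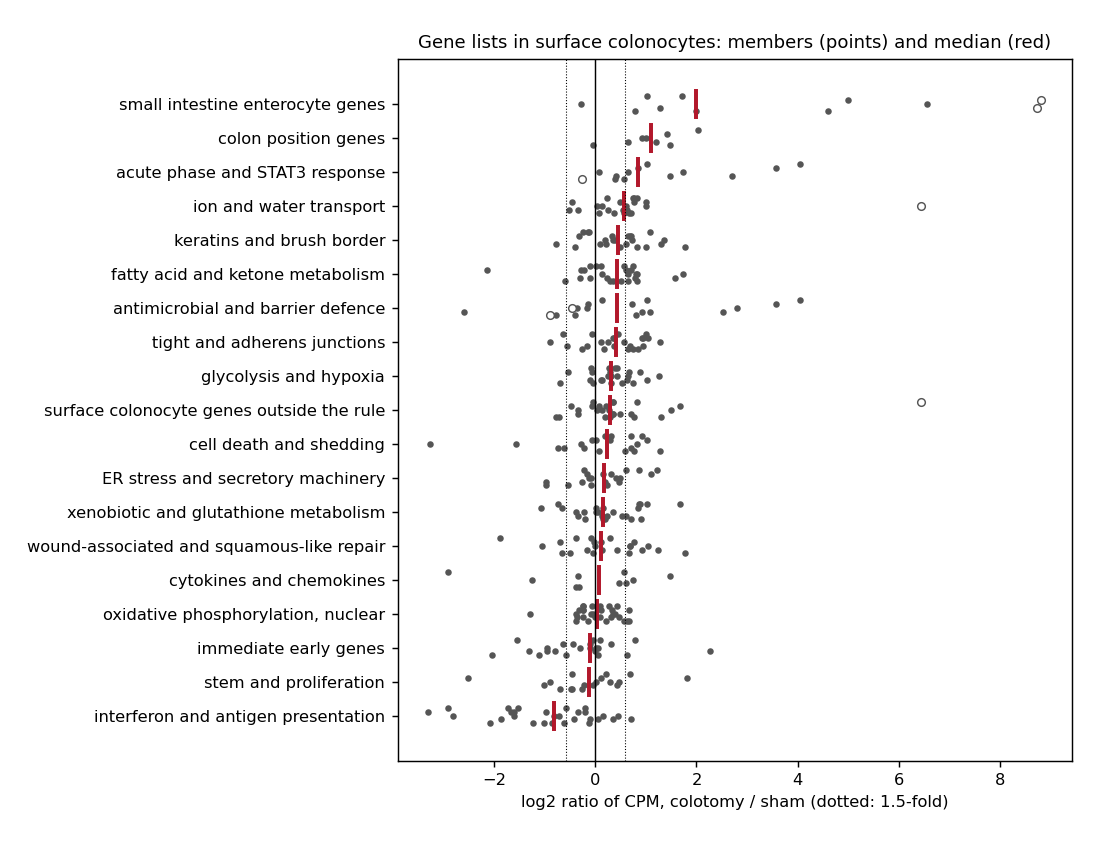
Log2 ratio of CPM, colotomy over sham, for the genes of 19 lists in surface colonocytes; each point is a gene with at least 20 UMIs, open points are bounds, red bars are medians and dotted lines mark 1.5-fold. The interferon and antigen presentation list has the lowest median (-0.82), and the small intestine list the highest (1.997). The 25 cells were picked by genes of the small intestine list, so its fall without them was fixed in advance.

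Fuel metabolism differed little in its nuclear-encoded respiratory chain, with 3 of 30 genes higher, 1 lower and a median of 0.04. Fatty acid and ketone genes had 11 of 26 higher and 2 lower, with a median of 0.43. Acsl5, which activates fatty acids, stood at 97.99 and 29.5 CPM, log2 1.73 (0.82 to 2.60). Glycolysis and hypoxia genes had 7 of 24 higher and 1 lower (median 0.30), and genes of xenobiotic metabolism 8 of 25 and 3 (median 0.15). Of 20 genes of cell death and shedding, 7 were higher and 4 lower (median 0.24). Among these Casp8 stood at 250.4 and 103 CPM, log2 1.28 (0.76 to 1.79), and Casp4, which senses bacterial endotoxin, had 1 and 59 UMIs. Genes of the endoplasmic reticulum had 4 of 20 higher and 2 lower (median 0.18), cytokines 3 of 10 and 2 (median 0.07), and stem and proliferation genes 2 of 18 and 4 (median -0.13).

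Of 20 listed genes that mark position along the colon 8 were measured, with 7 higher, 0 lower and a median of 1.10. Cdx2, a master gene of gut identity, stood at 212 CPM (39 UMIs) and 92.95 CPM (104 UMIs), log2 1.19 (0.62 to 1.74). Hoxb9 stood at 87.1 CPM (16 UMIs) and 31.3 CPM (35 UMIs), log2 1.48 (0.53 to 2.37). Without members holding a B cell UMI, 3 were higher and 0 lower. Among other epithelial cells 1 of the 8 was higher and 1 lower, with a median of 0.44. Hoxb13, with too few UMIs to be counted in the list, went the other way. It stood at 5.44 and 11.6 CPM in members (1 and 13 UMIs) and at 4.84 and 21.3 CPM in goblet-rich cells (3 and 30 UMIs).

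Markers of other cells differed between the libraries. Fibroblast and smooth muscle genes were higher after colotomy for 8 of 11 and lower for 1 (median 0.84), with Col1a1 at 169 and 29.5 CPM. Leukocyte genes had 5 of 19 higher and 7 lower, with S100a9, of neutrophils, at 452 and 42.9 CPM in 8 and 4 cells. Goblet genes outside the rule had 0 of 7 higher and 2 lower, enteroendocrine and tuft genes 4 of 6 and 1, and endothelial, mesothelial, adipocyte and red cell genes 0 of 7 and 4. Of the members, 7 after colotomy and 10 after sham also met the fibroblast rule. Barcodes that may hold 2 cells were not removed, and the part of other cells' RNA in these values was not tested.

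Members also varied along the surface program itself. With each cell thinned to 500 UMIs, 63, 63, 31 and 4 colotomy members held under 2, 2 to 3, 4 to 9 and 10 or more surface-gene UMIs, and 201, 143, 153 and 33 sham members did. The top group of 4 colotomy cells is too small to read. Over the first 3 groups Lypd8 stood at 3632, 4051 and 9112 CPM after colotomy and at 6082, 7495 and 10605 CPM after sham. Emp1, a membrane protein of differentiating epithelium, stood at 522, 1218 and 1755 CPM and at 530.4, 889 and 1177 CPM. Mxd1 stood at 144, 712 and 1232 CPM and at 339, 844 and 1130 CPM. These genes were higher in cells with more surface RNA over these 3 groups in both libraries. Krt19, a keratin found along the crypt, went the other way, at 1922, 1439.9 and 1046 CPM after colotomy and at 2109, 1622 and 1153 CPM after sham. Irf7 stood at 100.0, 222 and 448 CPM after colotomy and at 306, 646 and 1040 CPM after sham, so it was lower after colotomy in each of these 3 groups. In the 33 sham cells with 10 or more surface UMIs, Irf7 stood at 839 CPM (44 UMIs) and Krt19 at 1220 CPM (64 UMIs). On so few UMIs, whether either kept its course there was not tested. Reg3b stood at 3255, 1946 and 1755 CPM and at 398, 59.8 and 15.6 CPM, the last on 4 UMIs. The groups use the genes of the rule, so these levels are a description.

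**Figure D5:**
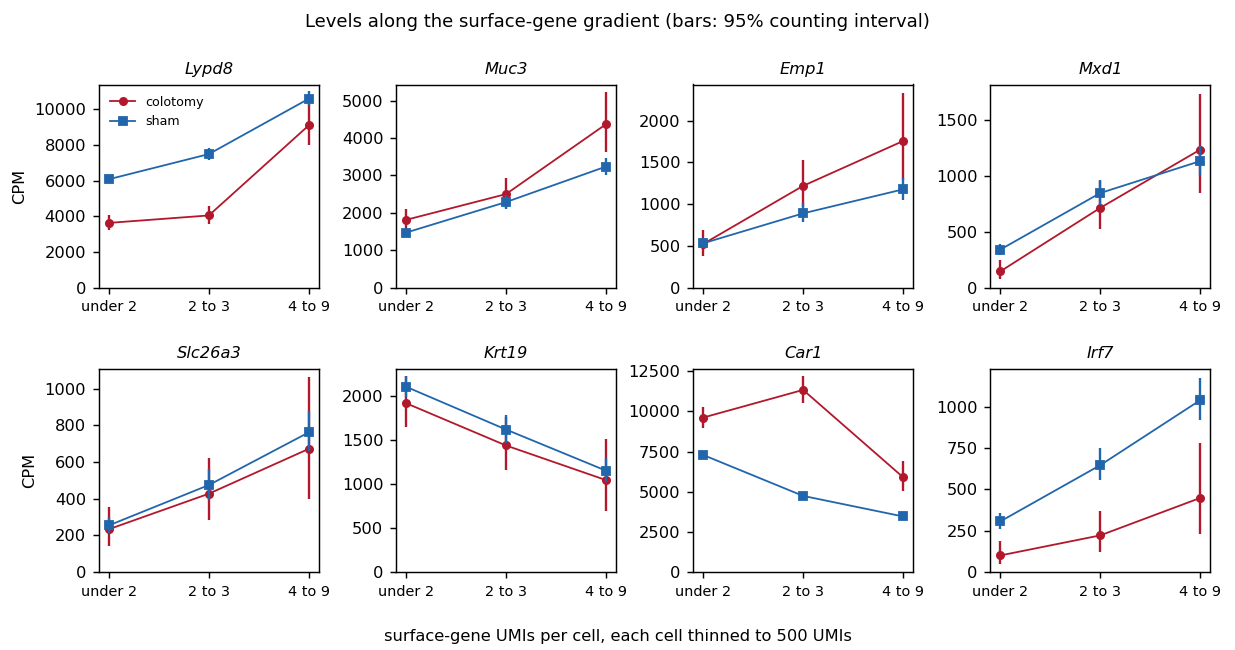
CPM of 8 genes (y axes from 0) in members grouped by surface-gene UMIs after thinning to 500 UMIs (x axis), for colotomy (red) and sham (blue), with 95% counting intervals. Lypd8, Muc3, Emp1, Mxd1, Slc26a3 and Irf7 are higher to the right in both libraries over the 3 groups drawn, Krt19 is lower, and Irf7 in sham members stands above colotomy members in each group (1040 against 448 CPM in the last). Cells with 10 or more surface UMIs (4 and 33) are not drawn.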

How the data were processed

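Single-cell RNA from 2 libraries was read as the raw UMI counts that the authors deposited, for 32285 genes and 2 hashtags per barcode, made with Cell Ranger 6.0.0 per the file headers. Per the submitters' processing notes, reads were aligned to mm10 and STAR 2.5.1b was used; Seurat and Space Ranger are listed without a role. The cell calling settings are not given in the sources used here.

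Members were chosen by the rule above. The members, the gene lists and the rule for named genes were chosen with earlier results of these data known. UMIs were summed per library and given as CPM, with exact Poisson intervals; ratios have exact conditional binomial intervals and shares exact Clopper-Pearson intervals, all at 95% (Python 3.11.15, numpy 2.4.6, scipy 1.17.1, pandas 2.3.3). A count of 0 was set to 3 counts per library, which makes the ratio a bound, also inside list medians. A gene counted as higher or lower at 1.5-fold with at least 20 UMIs over both libraries. Named genes are the 12 largest and 12 smallest ratios among genes with at least 30 UMIs and 100 CPM in the higher library and, in that library, at least the CPM of the rest of the kept cells. Mitochondrial, ribosomal (with mitochondrial ribosomal, fusion and associated proteins), haemoglobin, immunoglobulin, unnamed and rule genes were left out. The calculation was tested on simulated data. Thinning drew 500 UMIs per cell without replacement. Doublets were not called. Gene positions come from GENCODE M21, promoters from RefSeq. Values of some list genes are not reported here.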

Additional observations from a re-analysis of the deposited data

How the results depend on the processing

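With 1 library per group no replicate could be left out, and intervals cover counting error only. No paired analysis was possible because each group has 1 library and no result comes from a test. The colotomy share of kept cells was 1.38 times the sham share, and 1.87 with at least 1000 UMIs and 500 genes, 2.17 under 10% mitochondrial UMIs and 0.925 with at least 4 surface UMIs, which turned its direction. The share of epithelial cells, 0.324, became 0.426 under 10% mitochondrial UMIs, 0.393 with the rule read after thinning and 0.216 with at least 4 surface UMIs. Neither share is given without the 25 cells with small intestine RNA. The 1570 higher and 1627 lower genes became 876 and 877 of 3535 tested under 10% mitochondrial UMIs, 920 and 753 of 3001 among Xist-free members holding Y-linked RNA, 762 and 709 of 3774 with at least 50 UMIs per gene, and 895 and 753 of 4423 without members holding a B cell UMI, settings in which fewer genes could be tested. With no minimum on UMIs 3888 of 11189 were higher and 2121 lower. The small intestine median of 1.997 became 0.999 with 1000 UMIs and 500 genes, 3.46 under 10% mitochondrial UMIs and 2.62 as a mean over cells. It was -0.067 without the 25 cells with small intestine RNA, which were picked by genes of that list, so this fall was fixed in advance. Also reversed were Enpep without those cells (-0.37) and, among those Xist-free members (25 and 140 cells), Sycn (1.05) and the enteroendocrine and tuft median (-0.77). The other 22 named genes kept their direction under every setting that gave a value; Reg3b ranged from 1.88 to 6.48, Isg15 from -3.98 to -0.55, and the interferon median from -1.05 to -0.39. Dividing by the median ratio of genes with at least 50 UMIs shifts all log2 ratios by 0.08. Settings that drop members with small intestine, B cell or enteroendocrine RNA, or the 10 members of each library richest in Reg3 RNA, were chosen after seeing the data. Subtraction of free RNA was not run, since the sham matrix holds no barcode under 500 UMIs.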
